A study of Oryctolagus cuniculus with 6 samples.

Results

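Complement genes were examined in the injured facial nerve of rabbits, with and without an I-125 seed. The 9 genes chosen encode the subunits of C1q (C1QA, C1QB and C1QC), the C1 proteases (C1R and C1S), the central component C3, factor B (CFB) and the anaphylatoxin receptors (C3AR1 and C5AR1). They were matched by gene symbol, and 7 of the 9 had a row among the 17396 genes of the count files. C1QA and C1QB had none and were not analysed here, so C1q is represented by C1QC. The rabbits were wild type male Japanese white animals, 3 to 4 months old. In the FNI group (facial nerve injury, 3 libraries) the main trunk of the facial nerve had been cut. In the FNI+I-125 group (3 libraries) the same cut was followed by placing an I-125 seed, a sealed source of low-energy radiation, beside the nerve. Both groups were harvested on day 14, so every library comes from a transected nerve. The study's methods describe neither a seed without activity nor a separation of cell types. The Schwann cell genes SOX10 and S100B were detected in every library, but their counts differed widely. S100B ran from 492 counts in FNI+I-125 replicate 1 to 19243 counts in FNI replicate 3. SOX10 ran from 832 counts in FNI+I-125 replicate 1 to 4689 counts in FNI replicate 1. Detection alone does not show that the libraries hold equal shares of nerve, and muscle and gland markers were unevenly spread, as given below.

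Complement is a cascade of secreted proteins that marks cells and debris for removal. In the classical pathway C1q binds a surface and activates the proteases C1r and C1s, which cleave C4 and C2. All pathways meet at C3, and the alternative pathway, which uses factor B, amplifies its cleavage. The fragments C3a and C5a act on C3AR1 and C5AR1, while C3 fragments on a surface are bound by the integrins of phagocytes. In many tissues macrophages are the main source of C1q, and fibroblasts make C1r, C1s and C3. After nerve injury, complement takes part in the clearance of myelin by macrophages.

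None of the 7 genes passed an adjusted p of 0.05 between the groups in edgeR's quasi-likelihood test. C5AR1 had the largest difference and was the one member whose groups did not overlap, as for 14.8% of all genes tested in this direction, with a mean of 85.0 ± 25.2 CPM in the FNI+I-125 group against 32.0 ± 21.2 CPM in the FNI group (SD, n = 3 each). C3 varied most between rabbits of the FNI+I-125 group, and C1QC, C1R, C1S and CFB differed between the group means by at most 1.29-fold. All 7 genes had their lowest value in FNI replicate 3, as did 31.6% of all genes tested. The highest value lay in FNI+I-125 replicate 2 for 4 of the 7 (16.7% of all genes) and in FNI+I-125 replicate 1 for 2 (24.2%). The log2 fold change was above 0 for 6 of the 7, with a median of 0.32, against 51.1% of all genes and a median of 0.01. Levels are in CPM, counts scaled by library size with edgeR's TMM factors. In bulk tissue, fewer cells of a type and less RNA per cell cannot be told apart.

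Total counts ran from 16031151 to 16798012 per library. Every member had at least 10 counts in each library and all passed the filter on low counts, which left 14003 genes. Where a value is given for every library, replicates 1, 2 and 3 follow in that order. Among these 14003 genes 0 passed an adjusted p of 0.05 with a log2 fold change of 1.5 or more (0% higher and 0% lower) with edgeR. At an unadjusted p under 0.05, 9.23% of genes were higher with the seed and 7.73% were lower, and the members contributed 0. By DESeq2 1 member (C5AR1) was higher at an unadjusted p, as were 11.5% of all genes, and 10.8% were lower. It called 1.69% of genes higher and 1.16% lower at the adjusted p with the same fold change, and 0 members. Skeletal muscle and salivary gland markers were unevenly spread over the libraries. The muscle list summed to 5943 and 5169 CPM in FNI+I-125 replicates 1 and 2 and to at most 109 CPM elsewhere, and the gland list to 49618 CPM in FNI replicate 2. With library sizes computed without the muscle genes, the log2 fold change of C5AR1 was 1.41 and 0 members passed either threshold, and the part of gland RNA was not tested.

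C1QC encodes one of the chains of C1q, the recognition protein of the classical pathway. It stood at 184, 240 and 94.0 CPM in the FNI rabbits and at 253, 281 and 133 CPM in those with the seed. In each group replicate 3 was the lowest, and the groups overlapped. The group means were 173 ± 73.7 CPM and 222 ± 78.5 CPM (SD, n = 3 each). For C1QC the log2 fold change was 0.37 (95% confidence interval -0.67 to 1.40, adjusted p = 0.652 in edgeR's quasi-likelihood test), an interval that spans 0.628-fold to 2.64-fold. With single libraries left out it ran from 0.056, without FNI replicate 3, to 0.68, without FNI replicate 2.

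**Figure D1:**
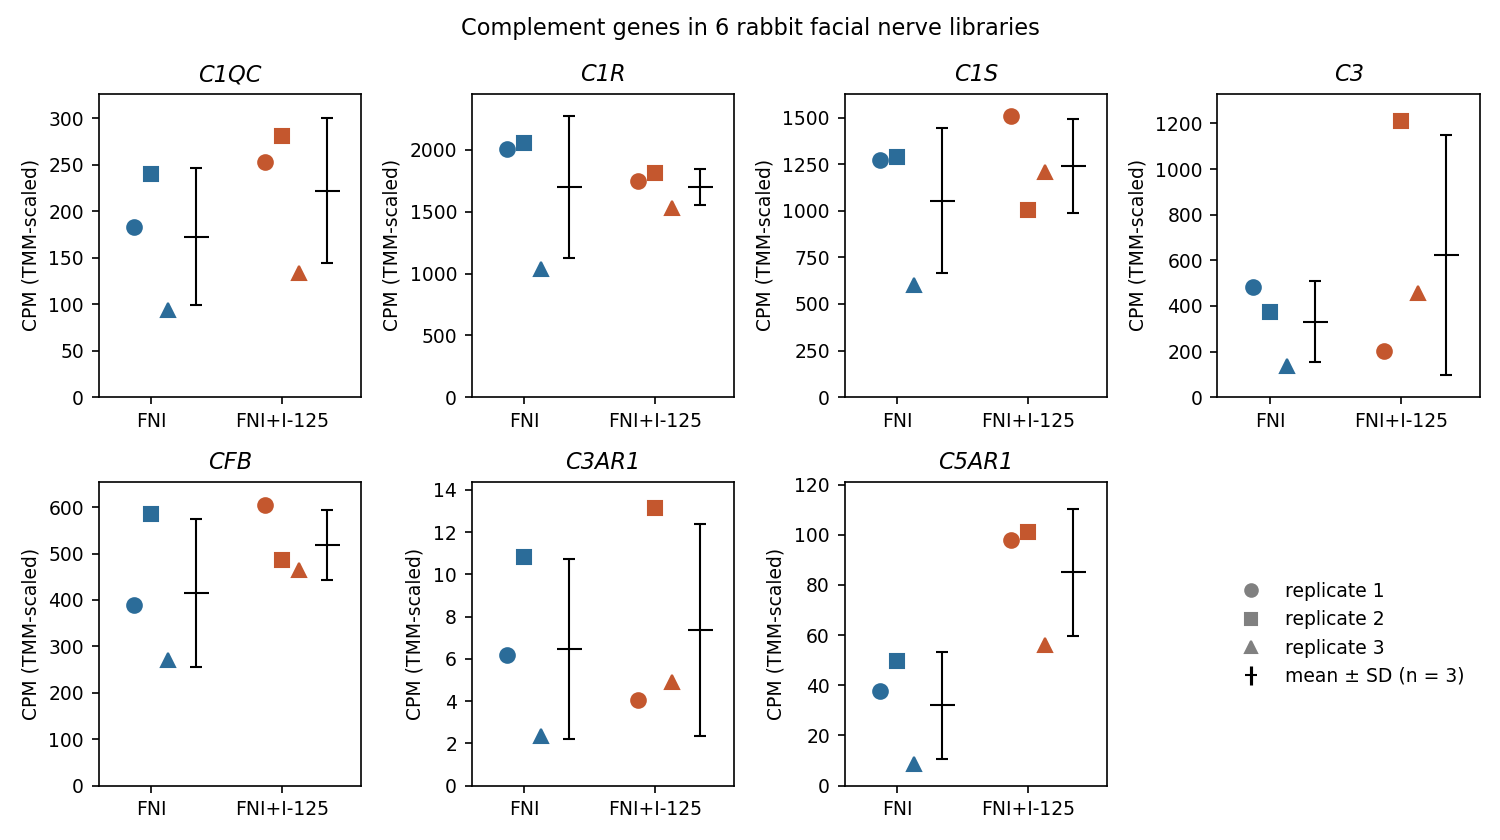
CPM of the 7 complement genes in each library, scaled with TMM factors, with 1 panel per gene and the vertical axis starting at 0. Points are libraries with the replicate number shown by shape, and black marks give the mean ± SD (n = 3). C5AR1 ran from 55.9 to 101 CPM in the FNI+I-125 group, above all FNI libraries, and in the other 6 panels the groups overlap.

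C1R and C1S encode the serine proteases of the C1 complex and are neighbours in the RefSeq annotation of rabbit assembly mOryCun1.1. C1R stood at 2010, 2057 and 1034 CPM in the FNI rabbits and at 1750, 1814 and 1533 CPM in those with the seed. All FNI+I-125 libraries lay between FNI replicate 3 and the other FNI libraries. The means were 1700 ± 577 CPM and 1699 ± 147 CPM (SD, n = 3 each). Its log2 fold change was -0.001 (95% confidence interval -0.75 to 0.75, adjusted p = 0.999 in edgeR's quasi-likelihood test). The interval leaves room for differences of up to 1.68-fold in either direction.

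C1S stood at 1270, 1288 and 604 CPM in the FNI rabbits and at 1506, 1005 and 1210 CPM in those with the seed. It was highest in FNI+I-125 replicate 1 and lowest in FNI replicate 3, and the groups overlapped. C1S had a log2 fold change of 0.24 (95% confidence interval -0.61 to 1.08, adjusted p = 0.726 in edgeR's quasi-likelihood test). Without FNI replicate 3 it was -0.064 for C1S and -0.28 for C1R.

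C3, whose cleavage yields the opsonin C3b and the anaphylatoxin C3a, stood at 484, 373 and 135 CPM in the FNI rabbits. With the seed it stood at 202, 1212 and 456 CPM. FNI+I-125 replicate 2 lay far above the rest, whereas FNI+I-125 replicate 1 lay below FNI replicates 1 and 2. The highest library held 8.97 times the CPM of the lowest, against 1.99 times for C1R. The log2 fold change of C3 was 0.91 (95% confidence interval -0.92 to 2.75, adjusted p = 0.519 in edgeR's quasi-likelihood test). Without FNI+I-125 replicate 2 it was -0.039, so the higher mean of the group rests on that library.

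CFB encodes factor B, the protease subunit of the alternative pathway convertase. It stood at 388, 585 and 271 CPM in the FNI rabbits and at 605, 487 and 464 CPM in those with the seed. FNI replicate 2 lay within the range of the rabbits with the seed. Its log2 fold change was 0.32 (95% confidence interval -0.42 to 1.07, adjusted p = 0.574 in edgeR's quasi-likelihood test). With single libraries left out it ran from 0.075, without FNI replicate 3, to 0.65, without FNI replicate 2, where CFB passed the unadjusted threshold but not the adjusted one (adjusted p = 0.321 in edgeR's quasi-likelihood test).

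C3AR1, the receptor of C3a, had the fewest counts of the members, with 40 to 216 per library. It stood at 6.21, 10.8 and 2.36 CPM in the FNI rabbits and at 4.05, 13.1 and 4.93 CPM in those with the seed. Replicate 2 was the highest library of each group. C3AR1 had a log2 fold change of 0.19 (95% confidence interval -1.48 to 1.86, adjusted p = 0.897 in edgeR's quasi-likelihood test). It was -0.55 without FNI+I-125 replicate 2 and 0.78 without FNI replicate 2, so its direction changed with single libraries.

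C5AR1, the receptor of C5a on neutrophils and macrophages, stood at 37.7, 49.6 and 8.51 CPM in the FNI rabbits. With the seed it stood at 97.9, 101 and 55.9 CPM. Every FNI+I-125 library lay above every FNI library (exact permutation test, two-sided, p = 0.1, the smallest p that 3 against 3 allow). In edgeR's fit the log2 fold change was 1.41 (95% confidence interval -0.13 to 2.95), a fitted fold of 2.66. C5AR1 missed the threshold with an adjusted p of 0.313 in edgeR's quasi-likelihood test and 0.149 with DESeq2. With each library left out in turn, its log2 fold change ran from 0.95, without FNI replicate 3, to 1.88, without FNI replicate 2. The neutrophil markers CSF3R, CXCR2 and S100A8 summed to 41.9, 20.5 and 2.66 CPM in the FNI rabbits. With the seed they summed to 694, 20.1 and 52.7 CPM, and the part of neutrophils in C5AR1 was not tested.

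Within each library, C1QC was set against C1R and C1S as a log2 ratio of CPM. Levels of different genes are not compared, since transcript lengths were not used here, but a change in their ratio does not depend on length. The ratio of C1QC to the mean of C1R and C1S was -3.12, -2.76 and -3.07 in the FNI rabbits and -2.68, -2.26 and -3.35 in those with the seed. The group means were -2.98 ± 0.20 and -2.77 ± 0.55 (SD, n = 3 each), with overlap. The ratio of C1QC to C3 ran from -2.11 in FNI+I-125 replicate 2 to 0.32 in FNI+I-125 replicate 1, so its widest spread lay inside 1 group. Neither ratio separated the groups.

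The members differed in how they varied over the libraries. After centring log2 CPM on each gene's own mean, the root mean square difference over the 6 libraries was smallest for C1S and CFB (0.22), C1R and C1S (0.23) and C1R and CFB (0.26) among the 21 pairs. This measure is not scaled to a gene's own spread. For C1R, C1S and CFB the highest library held 1.99, 2.50 and 2.23 times the CPM of the lowest. For C1QC, C3AR1, C3 and C5AR1 it held 2.99, 5.56, 8.97 and 11.9 times. C1QC followed C1R, C1S and CFB, at 0.32 from CFB. C3 was nearest to C3AR1, at 0.52, and both were highest in FNI+I-125 replicate 2. The 14 macrophage markers and the 7 T cell markers also summed highest in that library, to 2979 and 67.1 CPM. The part of these and other cell types in this was not tested. C5AR1 was nearest to C1QC, at 0.76. FNI replicate 3, the lowest library for all 7 genes, was the highest for 30% of all genes tested.

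**Figure D2:**
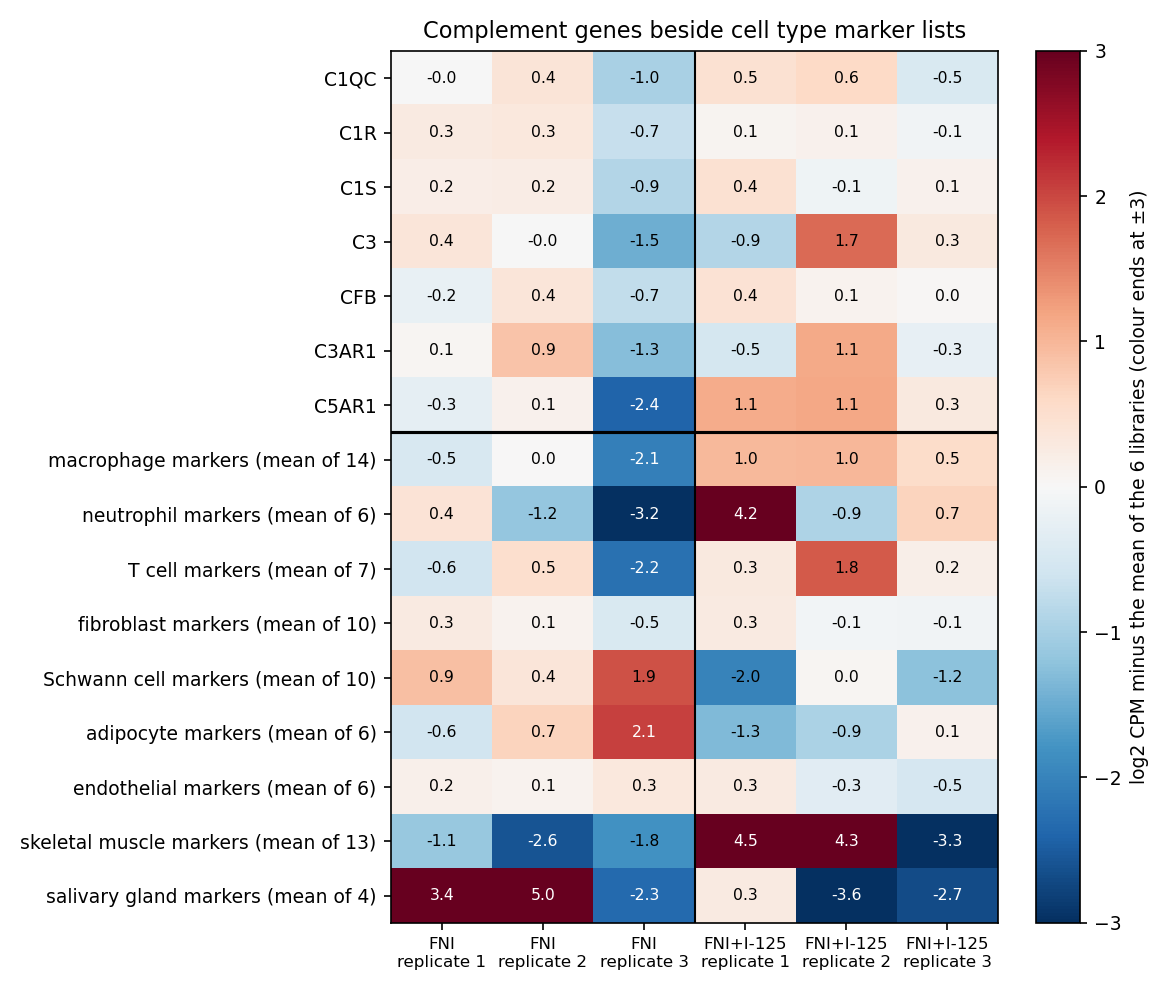
Log2 CPM minus the mean of the 6 libraries, for 7 complement genes and, under the line, for the mean of 9 cell type marker lists. Columns are libraries and the colour scale ends at 3 in each direction. In FNI replicate 3 the values of the complement genes ran from -2.40 for C5AR1 to -0.68 for C1R, beside -2.05 for macrophage and 1.91 for Schwann cell markers.

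The marker lists gave the cellular setting of that library. In FNI replicate 3 the 14 macrophage markers summed to 322 CPM, against 1036 and 1326 CPM in the other FNI rabbits. With the seed they summed to 2260, 2979 and 1943 CPM. All 14 macrophage markers had a log2 fold change above 0, with a median of 1.62 against 0.01 over all genes tested, and 10 of the 14 lay higher without overlap, against 14.8% of all genes. The 3 defining markers CSF1R, CD68 and AIF1 were detected in every library. The 10 fibroblast markers had a median log2 fold change of 0.14, and 0 of them lay higher without overlap. Other lists also differed in direction between the groups. The log2 fold change was above 0 for 7 of 7 T cell markers (median 1.47) and 6 of 6 neutrophil markers (median 3.43). Of these, 2 and 0 lay higher without overlap. All 6 neutrophil markers were highest in FNI+I-125 replicate 1, as were 24.2% of all genes tested. Without that library their log2 fold changes ran from 0.28 for CXCR1 to 1.36 for S100A12. The log2 fold change was below 0 for 10 of 10 Schwann cell markers (median -1.81) and 6 of 6 adipocyte markers (median -1.65). Of these, 4 and 1 lay lower without overlap, against 12.3% of all genes. The part of these cell types in the values of C1QC and C5AR1 was not tested.

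Relative to the mean of the 14 macrophage markers, C1QC stood at a log2 ratio of 2.50, 2.40 and 3.11 in the FNI rabbits. With the seed it stood at 1.51, 1.65 and 1.02, below all FNI libraries. The difference between the group means was -1.28, and it stayed between -1.41 and -1.06 with each library left out. A lower ratio to these markers without overlap was found for 78.4% of all genes tested, with a median difference of -1.67, so this order is common and not particular to C1QC. Set against each marker alone, C1QC had a lower ratio in the FNI+I-125 group for 13 of 14. The difference ran from -3.45 for MSR1, a scavenger receptor, and -1.97 for CD68, a lysosomal protein, to -0.32 for MRC1, the mannose receptor, and 0.21 for MERTK, a receptor for the uptake of dying cells. By construction of the ratio, these last were the markers whose own log2 fold changes were nearest to that of C1QC, with 0.59 for MRC1 and 0.21 for MERTK.

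C5AR1 differed between the groups about as much as these markers did on average. Its log2 ratio to their mean was 0.22, 0.13 and -0.33 in the FNI rabbits and 0.14, 0.18 and -0.23 in those with the seed, a difference of 0.03 between the group means. A difference this high or higher was found for 3.63% of all genes tested. The log2 ratio of C5AR1 to C1QC was -2.28, -2.27 and -3.45 against -1.37, -1.47 and -1.25, without overlap, as for 3.47% of all genes when set against C1QC. The ratio of C3AR1 to C5AR1 was lower by 1.47 on average in the FNI+I-125 group, from a mean of -2.19 to -3.65, without overlap. This order is common and not particular to C3AR1, since 60.1% of all genes had it when set against C5AR1. Neither anaphylatoxin receptor passed the test alone, and the difference between their fold changes was not tested.

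**Figure D3:**
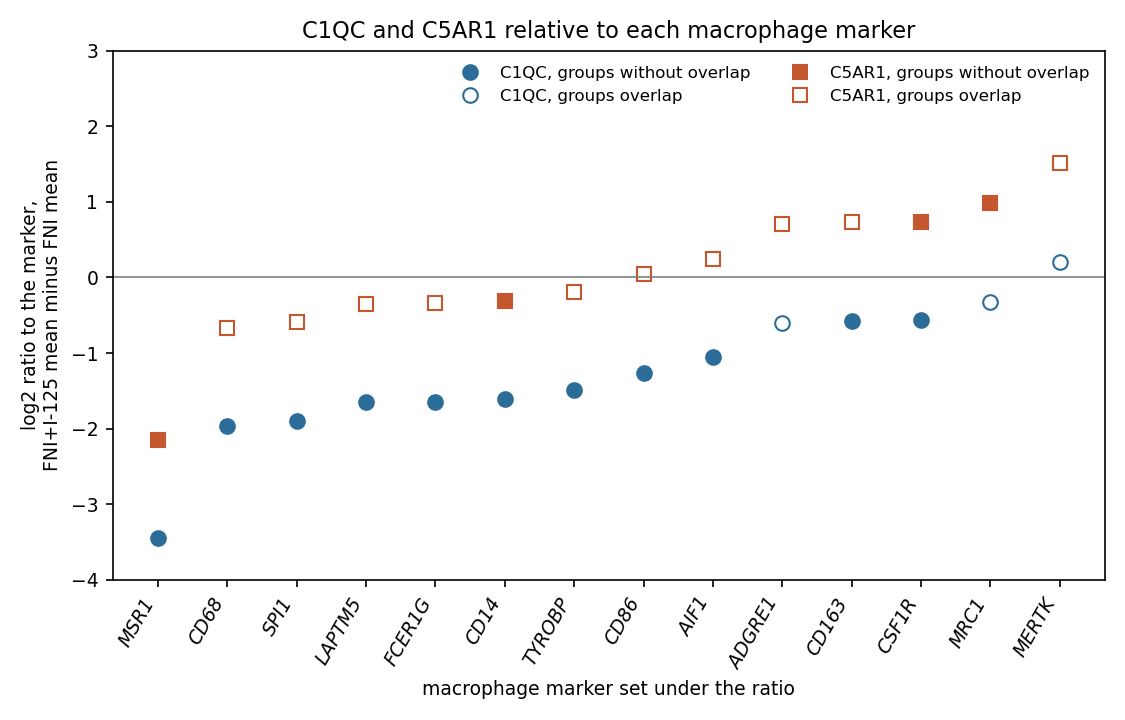
Difference between the group means (FNI+I-125 minus FNI) of the log2 ratio of C1QC (circles) and C5AR1 (squares) to each of 14 macrophage markers on the horizontal axis. Filled symbols are ratios whose groups do not overlap. C1QC lies under 0 for 13 markers, and C5AR1 lies under 0 for 7 and above for 7.

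The genes with the most similar course over the 6 libraries were taken among 12672 genes tested outside the lists, by the same root mean square difference of centred log2 CPM. STAB1, a scavenger receptor of macrophages and sinusoidal endothelium, was nearest to C1QC at 0.08, with 517, 615 and 223 CPM in the FNI rabbits and 605, 728 and 338 CPM in those with the seed. PKD2L2, CCL21, CARD6 and the lipid carrier APOE followed, at 0.12 to 0.18. PKD2L2 had only 0.18 to 0.78 CPM, so its course rests on few counts. C1R was nearest to SPATS2L, FZD6, RAD9A, HNRNPH2 and DCPS, at 0.09 to 0.12. Nearest to C3 were LAG3, the lysosomal enzymes CTSA and GUSB, P2RY12 and NOV, at 0.28 to 0.36. These differences are not scaled to a gene's own spread. The SD of log2 CPM was 0.61 for C1QC, 0.37 for C1R, 1.10 for C3 and 1.30 for C5AR1. Nearest to C5AR1 were DENND1C, TUBA4A, PKIB, the signalling adaptor VAV1 of blood cells and ABCC3, at 0.16 to 0.18.

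Of 45 other genes of the pathway, 33 had a row and 27 passed the filter on low counts. At an unadjusted p under 0.05 in edgeR's quasi-likelihood test, 6 were higher (9.23% of all genes) and 3 were lower (7.73%), and 0 passed the adjusted p. DESeq2 called 5 of the 27 at its adjusted p with a log2 fold change of at least 1.5 in either direction. Of these, 4 were higher, VTN, ITGAM and ITGB2 among them (1.69% of all genes), and 1, CR1, was lower (1.16%). The groups did not overlap for 7 genes that were higher and 1 that was lower, against 14.8% and 12.3% of all genes. The median log2 fold change of the 27 genes was 0.20.

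Among the receptors and binding proteins, 9 were tested and 6 had a log2 fold change above 0, with a median of 0.76. ITGB2, the shared beta chain of the complement receptors on phagocytes, stood at 124, 163 and 26.5 CPM in the FNI rabbits and at 419, 812 and 426 CPM in those with the seed. ITGAM, the alpha chain of complement receptor 3, stood at 19.2, 32.9 and 5.44 CPM against 68.8, 73.3 and 72.9 CPM. Both separated the groups, and the FNI+I-125 libraries of ITGAM lay close together. Their log2 fold changes were 2.40 (standard error, SE, 0.69) and 1.90 (SE 0.60), each with an adjusted p of 0.280 in edgeR's quasi-likelihood test. With DESeq2 the adjusted p was 0.00894 for ITGB2 and 0.0305 for ITGAM.

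ITGAX, the alpha chain of complement receptor 4, stood at 16.7, 30.4 and 0.77 CPM against 47.7, 184 and 122 CPM, again without overlap. Its log2 fold change was 2.89 (SE 1.16, adjusted p = 0.292 in edgeR's quasi-likelihood test). These integrin chains are also general leukocyte genes, and they lay higher together with the macrophage markers. ITGAM, like C4BPA, was named from a RefSeq gene number, since the files list it without a symbol.

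CR1, complement receptor 1, had the opposite direction. It stood at 13.1, 5.98 and 92.4 CPM in the FNI rabbits and at 3.92, 7.06 and 3.64 CPM in those with the seed. FNI replicate 3 held most of its counts, and the groups overlapped. The log2 fold change was -2.93 (SE 1.07), with an adjusted p of 0.281 in edgeR's quasi-likelihood test and 0.0336 with DESeq2. Without FNI replicate 3 it was -0.98. C5AR2, the second C5a receptor, stood at 0.12 to 4.27 CPM against 3.76 to 9.07 CPM, and VSIG4, a macrophage receptor for C3 fragments, at 30.3 to 77.7 CPM against 64.6 to 161 CPM. CR2, a B cell receptor for C3 fragments, CD93, an endothelial and myeloid surface protein, and LRP1, an endocytic receptor, had log2 fold changes of -0.36, -0.30 and 0.26. The value of CR2 changed its direction with single libraries, from -0.81 without FNI+I-125 replicate 1 to 0.42 without FNI replicate 3. The FNI+I-125 libraries of LRP1 lay above the FNI libraries, at 2598 to 3207 CPM against 2236 to 2418 CPM.

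Among the regulators, VTN encodes vitronectin, which inhibits the terminal complex. It had 9, 17 and 2 counts in the FNI rabbits and 235, 27 and 123 counts in those with the seed. The groups did not overlap, and FNI+I-125 replicate 1 was the highest library. VTN had a log2 fold change of 3.81 (SE 1.06), with an adjusted p of 0.280 in edgeR's quasi-likelihood test and 0.00745 with DESeq2. Without FNI+I-125 replicate 1 it was 2.94.

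PTX3, a pentraxin that binds C1q, stood at 4.86, 5.73 and 3.19 CPM against 34.8, 5.90 and 8.98 CPM. Its log2 fold change was 1.85 (SE 0.72, adjusted p = 0.286 in edgeR's quasi-likelihood test), or 0.70 without FNI+I-125 replicate 1. The sums of the neutrophil, fibroblast, skeletal muscle and endothelial markers were also highest in that library. As means of centred log2 CPM, fibroblast markers stood at 0.279 there against 0.280 in FNI replicate 1. Endothelial markers stood at 0.27 there against 0.31 in FNI replicate 3. The part of these cell types in the values of PTX3 was not tested. CD59, the membrane inhibitor of the terminal complex, stood at 78.8, 46.6 and 134 CPM against 29.3, 55.6 and 20.4 CPM, with a log2 fold change of -1.30 (SE 0.51, adjusted p = 0.287 in edgeR's quasi-likelihood test). The values of CD59 overlapped between the groups.

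SUSD4, a membrane inhibitor of complement, was the one regulator whose FNI+I-125 libraries all lay below the FNI libraries, at 11.2 to 18.0 CPM against 19.2 to 82.2 CPM. Its log2 fold change was -1.44, or -0.50 without FNI replicate 3. SERPING1, the inhibitor of C1r and C1s, stood at 276 to 599 CPM in the FNI rabbits and at 364 to 501 CPM in those with the seed. CD55, which dissociates the C3 convertases, CFI, the protease that inactivates C3b and C4b, and C4BPA, a C4b-binding protein, had log2 fold changes of 0.26, 0.20 and 0.01. For C4BPA the value was -1.06 without FNI+I-125 replicate 2 and 0.39 without FNI+I-125 replicate 3. For CLU, or clusterin, which inhibits the terminal complex, the value of -0.54 became 0.58 without FNI replicate 1, which held 3218 CPM. CD46, a cofactor for CFI, had 1 to 26 counts per library and a log2 fold change of -1.07 (SE 0.82).

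**Figure D4:**
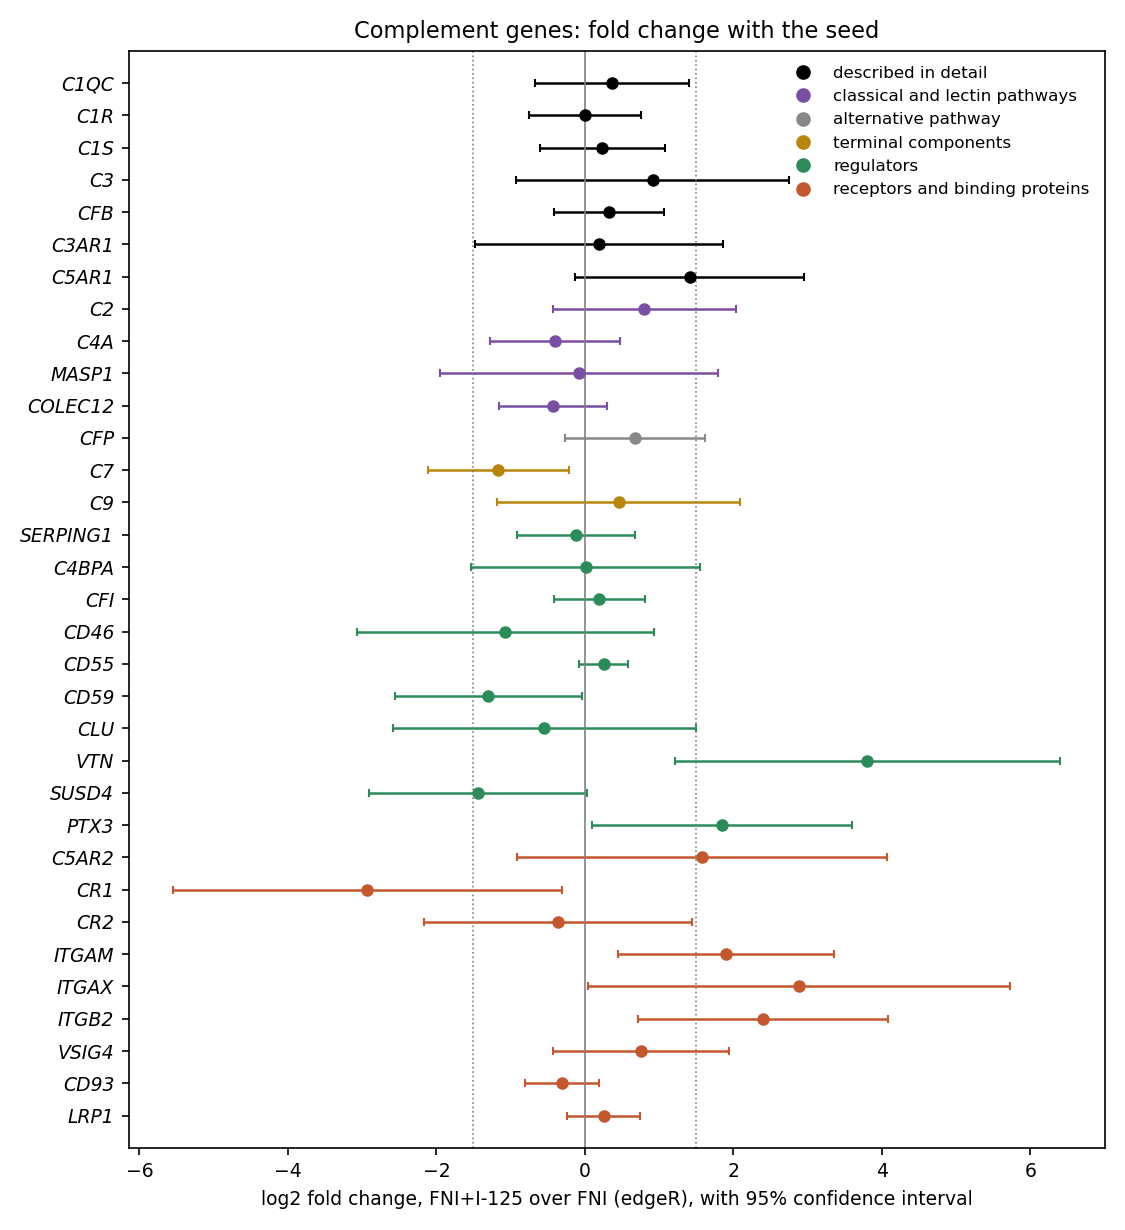
Log2 fold change of the 7 complement genes and of other pathway genes, FNI+I-125 over FNI, from edgeR's fit, with 95% confidence intervals as horizontal bars. Dotted lines mark a log2 fold change of 1.5 in each direction and colours mark the part of the pathway. Among the 7 genes in black every interval includes 0, and C5AR1 at 1.41 lies farthest from it.

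Of the early components, C4A, whose product is cleaved by C1s, stood at 4367, 4431 and 1970 CPM in the FNI rabbits. With the seed it stood at 2504, 2691 and 2941 CPM, between FNI replicate 3 and the other FNI libraries, as for C1R. Its log2 fold change was -0.40 (95% confidence interval -1.28 to 0.47, adjusted p = 0.549 in edgeR's quasi-likelihood test). In many mammals C4A has a near-identical copy, so its counts are uncertain. C2 stood at 66.5, 82.2 and 40.7 CPM against 70.5, 195 and 64.6 CPM, with FNI+I-125 replicate 2 the highest as for C3. Without that library the log2 fold change of C2 was 0.07 in place of 0.80. MASP1, a protease of the lectin pathway, had 20.6 CPM in FNI replicate 3 and 126 to 211 CPM elsewhere. COLEC12, a scavenger receptor of the collectin family, and CFP, for properdin, which stabilises the alternative convertase, had log2 fold changes of -0.43 and 0.67. COLEC10 and COLEC11 had at most 2 counts in a library.

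C7 was the terminal component with the most counts. It stood at 186, 276 and 112 CPM in the FNI rabbits and at 60.5, 80.5 and 115 CPM in those with the seed. FNI+I-125 replicate 3 lay just above FNI replicate 3, so the groups overlapped. The log2 fold change was -1.16 (SE 0.39, adjusted p = 0.280 in edgeR's quasi-likelihood test, 0.0564 with DESeq2), and it ran from -1.45 to -0.80 with single libraries left out. C9, which forms the pore of the membrane attack complex, had 8 to 31 counts per library, and C5 and C6 at most 5 counts. CSMD1 had at most 1 count in a library. CALR, for calreticulin, is used by most cells and yet had at most 4 counts, so its row is not read as a low level.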

How the data were processed

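Poly(A) RNA was isolated with oligo dT beads and sequenced on a HiSeq instrument, and the authors deposited unnormalized counts per gene in 1 file per library. The submitters' processing notes name HISAT2 and the build OryCun2.0, and the counting program and annotation are not given in the sources used here. Of 2992 LOC numbers, 542 were given a symbol from the RefSeq table of assembly mOryCun1.1, and no coordinates are printed. For 25 rows the files hold a spreadsheet date as name. These were kept in the tests.

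Group differences were fitted with edgeR 4.0.16 under R 4.3.3 (TMM, filterByExpr with a minimum count of 10, estimateDisp, glmQLFit and glmQLFTest with default settings, two-sided), and Benjamini-Hochberg adjustment was made over all 14003 genes tested. A call required an adjusted p under 0.05 together with a log2 fold change of 1.5. The test was chosen here, since the methods name none. Single genes were also compared by the exact permutation test of log2(CPM + 1), and ratios used log2 CPM with a prior count of 2. Standard errors were taken from the fold change and its F value. DESeq2 1.42.0 and limma 3.58.1 served as alternatives, and the test of each of these tools was tried on simulated counts. Within the groups, Pearson's r of log2 CPM across genes, which are not independent replicates, ran from 0.874 to 0.964, so no pair of libraries held identical values.

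Named were all members, the pathway genes with a row (except an item not reported here), the 5 genes nearest in course to C1QC, C1R, C3 and C5AR1, and defining markers. Some further markers were named after their values were seen, and so were the ratios that include C5AR1. The members and lists were chosen with earlier results of these data known. Total counts of 16031151 to 16798012 per library limit genes with few counts, and a count of 0 allows up to 3 counts, for counting error only.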

Additional observations from a re-analysis of the deposited data

How the results depend on the processing

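With edgeR, 0 genes were called higher and 0 lower, against 236 and 163 with DESeq2 and 388 and 306 at an unadjusted p with the same fold change. With single libraries left out the counts ran from 0 to 38 higher and from 0 to 2 lower, with the 38 and the 2 both without FNI+I-125 replicate 3. The complement members called were 0 under every alternative run. At an unadjusted p, 1 member (C5AR1) was higher with DESeq2 and with limma-voom, against 0 in edgeR, and 0 to 2 with single libraries left out (C5AR1 and CFB without FNI replicate 2, C5AR1 without FNI replicate 3). For the other pathway genes, DESeq2 called 5, limma-voom left 3 higher at an unadjusted p in place of 6, and leaving out single libraries left 3 to 5 higher (3 without FNI replicate 1) and 1 to 3 lower (1 without FNI+I-125 replicate 1 or 3). Same-numbered libraries of the groups did not deviate together over all genes (r = 0.05, -0.23 and -0.19 across genes for numbers 1, 2 and 3). With 3 libraries per group, these values cannot decide whether such libraries share more than a number. With the replicate block, 2 members (C1QC and C5AR1) were higher and 1 pathway gene was lower at an unadjusted p.

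The log2 fold change of C1R, near 0, became 0.062 with limma-voom, 0.061 with the replicate block, and ran from -0.28 to 0.16 with single libraries left out (0.13, 0.16 and 0.06 without FNI replicate 1, FNI replicate 2 and FNI+I-125 replicate 3). C1S changed sign without FNI replicate 3 (-0.064, the highest being 0.40), C3 without FNI+I-125 replicate 2 (-0.039, the highest being 1.34), and C3AR1 without FNI replicate 3 (-0.22) or FNI+I-125 replicate 2 (-0.55, the highest being 0.78). C1QC, CFB and C5AR1 kept a positive log2 fold change under the alternatives run. With single libraries left out, the group difference of the log2 ratio of C1QC ran from -0.03 to 0.51 against C1R and C1S, from -1.09 to 0.13 against C3 and from -1.41 to -1.06 against macrophage markers. The causes were not tested.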
